A study of Mus musculus with 16 samples.

Results

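Microglia are the resident macrophages of the brain, and 36 genes that mark them or the related macrophages around vessels were followed here through 16 libraries of mouse dorsal hippocampus. The genes were chosen by name from what is known of them, with earlier results of these data known, and they are 36 of the 55385 gene identifiers counted. All 36 passed the filter on low counts and so belong to the 16899 genes tested. By role they are 11 genes of resting (homeostatic) microglia, 9 of complement and phagocytosis, 8 that most myeloid cells share, 6 of activated microglia and 2 of perivascular macrophages.

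Every mouse received a recombinant adeno-associated virus (rAAV) in the dorsal hippocampus and was trained in contextual fear conditioning 3 weeks later, a task in which an animal learns to link a place with a mild shock. The virus carried green fluorescent protein (GFP) in the Control groups or an exogenous Dnmt3a2, the shorter form of the DNA methyltransferase Dnmt3a, in the Dnmt3a2 groups, and tissue was taken 1 or 5 days after training. With 2 viruses and 2 days there are 4 groups, of 4 libraries apiece, prepared from total RNA. All groups were injected and trained, so no comparison with untouched or untrained tissue is possible. The labels name no viral promoter, serotype, strain, age or sex, nor do they say that every library comes from a different animal. The p-values therefore measure the spread between these libraries.

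In microglia, colony stimulating factor receptor signalling keeps the cells alive, the purine receptors P2ry12 and P2ry13 and the fractalkine receptor Cx3cr1 let them sense nearby neurons, and Tmem119 and Sall1 set them apart from blood-derived macrophages. They make most of the brain's C1q, the starter of the classical complement cascade, which can tag synapses for removal. Trem2, with its signalling partner Tyrobp, senses lipids and debris, and activated cells take up a program that includes Cst7, Itgax and Lpl. The transcription factors PU.1 (gene Spi1) and Irf8 specify the lineage.

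PU.1 recognises a purine-rich element around GGAA, so the members' promoters were read for the letters AGGAAGT on either strand. A window from 250 bases before to 50 after a start was available for 26 of the 36 genes (RefSeq, GRCm38.p6), and 10 of them, or 38.5%, hold the letters. Among all 27025 genes with a window the share was 10.68%. The longer form GAGGAAGT, which always contains the first, was in 4 of the 26 members (C1qc, Cd53, Ctss and Pf4), or 15.4%, against 3.69% of all genes. A gene with several starts counted once, and a match is a run of letters, not a measured binding site. The stretches below are shown because they belong to genes whose values are given further on, from 4 of the 5 roles. They are read 5′ to 3′ on the strand of the gene, with the match in capitals (ACTTCCT is AGGAAGT on the other strand).
C1qb, chr4:136886207-136886293, minus strand: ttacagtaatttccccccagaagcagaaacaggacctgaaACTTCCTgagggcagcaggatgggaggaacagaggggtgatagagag
C1qc, chr4:136893063-136893149, minus strand: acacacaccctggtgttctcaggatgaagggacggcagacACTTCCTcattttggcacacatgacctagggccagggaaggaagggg
P2ry12, chr3:59262991-59263077, minus strand: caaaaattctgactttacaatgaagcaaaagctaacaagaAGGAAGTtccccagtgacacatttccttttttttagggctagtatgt
Cst7, chr2:150570312-150570398, plus strand: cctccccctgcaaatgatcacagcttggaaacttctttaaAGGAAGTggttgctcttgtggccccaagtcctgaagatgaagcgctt
Mrc1, chr2:14229164-14229249, plus strand: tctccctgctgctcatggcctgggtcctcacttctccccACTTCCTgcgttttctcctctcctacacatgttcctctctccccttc
Counted from the RefSeq start of the window, which can differ from the GENCODE gene ends given further on, the match lies 46 bases upstream in C1qb, 45 in P2ry12, 56 in Cst7, 188 in C1qc and 204 in Mrc1. The other members that hold it are Cd53, Ctss, Fcrls, Pf4 and Sall1. C1qa, Cd14, Cd74, Csf1r, Gpr34, Lpl, Selplg, Spi1, Tmem119 and Tyrobp had no window.

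Library totals ran from 28642366 to 29959491 estimated counts. Dnmt3a, counted over all its forms, read 32.7 to 37.7 CPM (counts scaled to library size) in the 8 Control libraries and 623 to 1249 CPM in the 8 Dnmt3a2 libraries, with no overlap at either day. Library size here includes the TMM factor, a correction for differences in RNA composition, and values in a series of 4 are given in the order of replicates 1 to 4. In whole tissue, fewer cells of a type and less RNA per cell cannot be told apart.

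The C1q subunits had the highest levels among the members once levels were divided by transcript length. C1qa averaged 60.7 ± 11.2 CPM per kilobase (SD, n = 16), C1qb 52.9 ± 9.12 and C1qc 45.2 ± 7.0. The order of these subunits held in nearly every library, with C1qa above C1qb in 16 of 16 and C1qb above C1qc in 15. Next came Selplg, a ligand for selectins, at 34.5 CPM per kilobase and the lysosomal protease Ctss at 31.1, with Selplg ahead of Ctss in 13 libraries. Ctss and Laptm5, at 29.7, were not ordered beyond their spread (Ctss ahead in 9 of 16), nor were Cd74 and Tyrobp (Cd74 ahead in 6) or Csf1r and P2ry12 (Csf1r ahead in 8). The homeostatic receptors sat in the middle, with Csf1r at 16.4, P2ry12 at 15.8, Cx3cr1 at 11.7 and Tmem119 at 10.7 CPM per kilobase. Lowest were C3ar1 at 0.498, Mrc1 at 0.316 and Itgax, an integrin of activated microglia, at 0.23. The plot of length-scaled levels shows this order for all 36 genes.

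**Figure D1:**
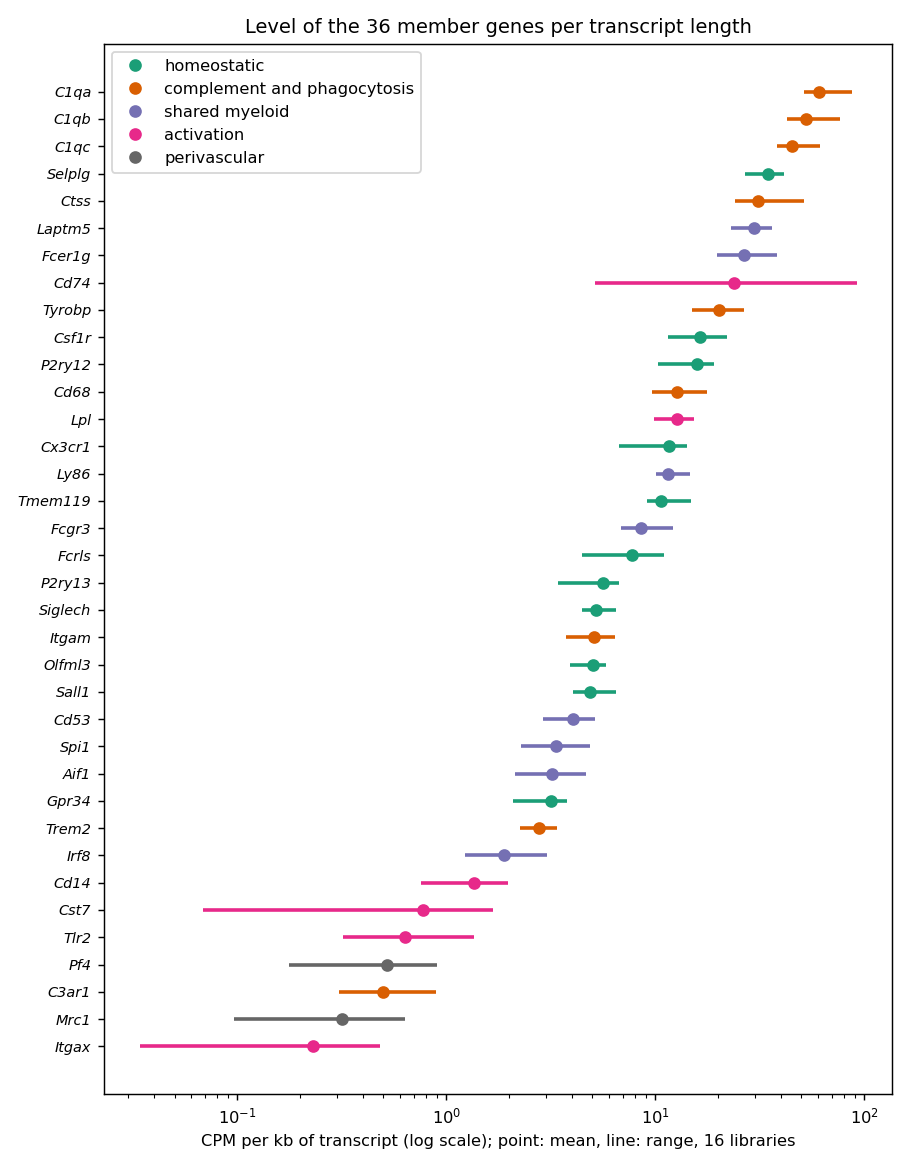
Level of each of the 36 genes in CPM per kilobase of its principal transcript, on a log axis. Points are means and lines the range over the 16 libraries, coloured by role; the C1q subunits stand at the high end, from 45.2 to 60.7, and Itgax at the low end, at 0.23.

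Certain libraries stood apart for these genes in a way the groups do not account for. Replicate 1 of the Control group at day 1, of the Dnmt3a2 group at day 1 and of the Dnmt3a2 group at day 5 were the highest 3 of all 16 libraries for 17 of the 36 members. That held for 6 of the 9 complement and phagocytosis genes, 5 of the 8 shared myeloid genes and 3 of the 6 activation genes, but for only 3 of the 11 homeostatic genes and neither perivascular gene. The summed level of the 36 members was 1037, 1160 and 1106 CPM in those libraries and 693 to 886 CPM in the other 13. Replicate 4 of the Dnmt3a2 group at day 1 gave the 693 and was the lowest of all libraries for 17 members, among them 8 of the 11 homeostatic genes. The map of the 36 genes by library shows both patterns.

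**Figure D2:**
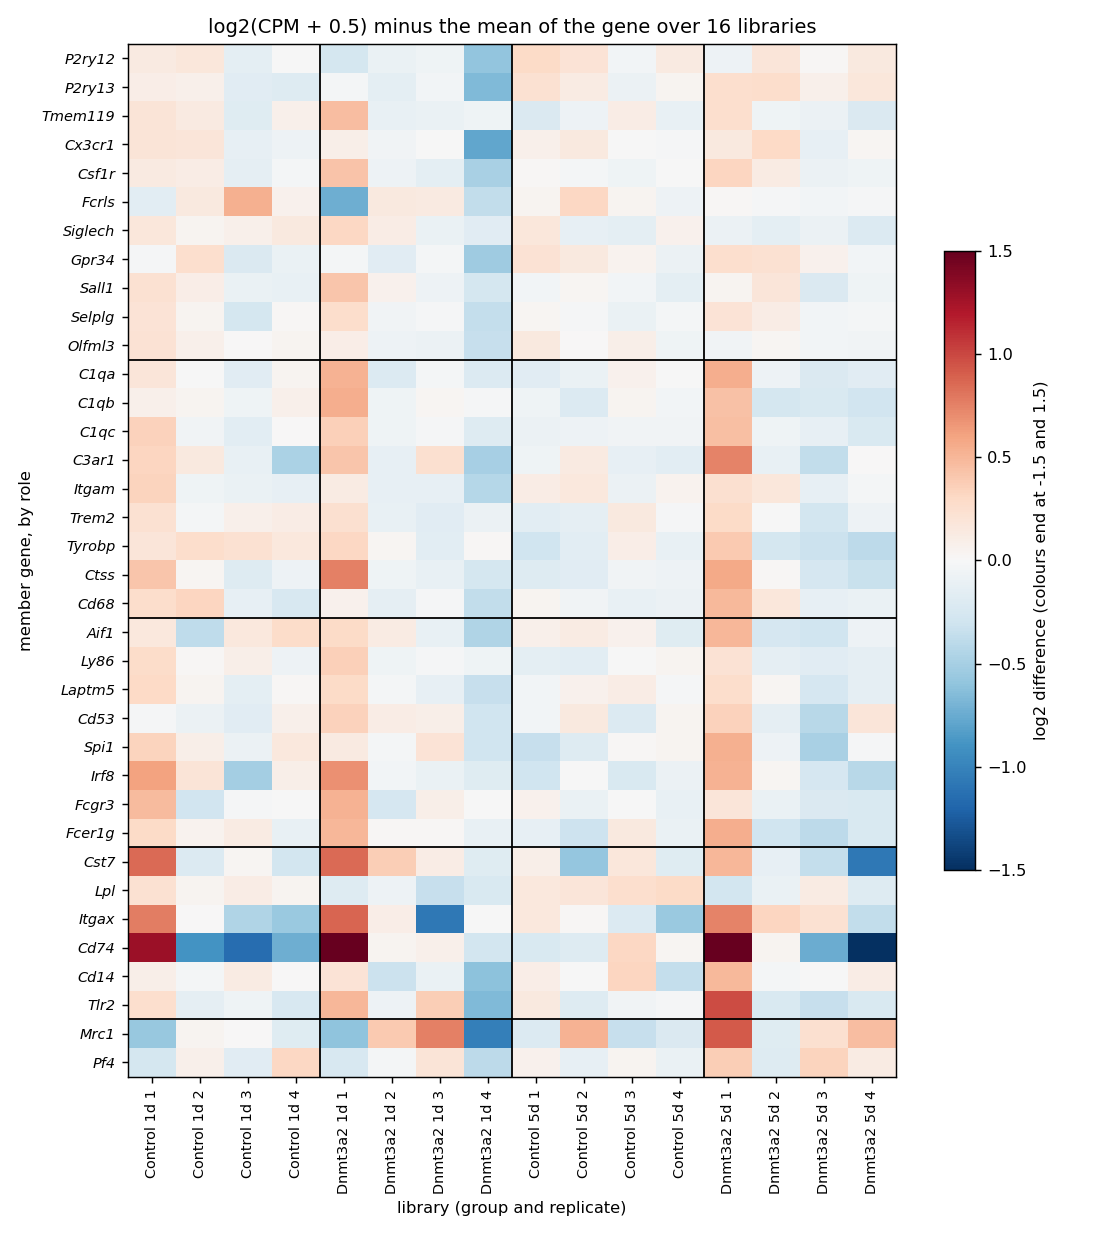
Each member's log2(CPM + 0.5) in each library minus that gene's mean over the 16 libraries, with genes in rows by role and libraries in columns by group; colours end at -1.5 and 1.5. Replicate 1 of Control day 1, Dnmt3a2 day 1 and Dnmt3a2 day 5 is red for most complement, shared myeloid and activation genes, and replicate 4 of Dnmt3a2 day 1 is blue for most homeostatic genes.

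Other marker lists were high in the same libraries. In the order Control day 1, Dnmt3a2 day 1, Dnmt3a2 day 5, the 6 MHC class II genes, which present antigen, summed to 61.4, 110 and 95.3 CPM against 22.0 to 48.9 in the other 13. The 14 of 15 interferon-response genes that were tested summed to 114, 127 and 173 CPM against 55.2 to 85.4. For the 6 of 14 lymphocyte genes that were tested the sums were 162, 79.2 and 62.4 CPM against 23.5 to 43.4. Monocyte and neutrophil markers were low in CPM in all libraries, yet the sum of the tested ones was again highest in these 3. The 2 of 11 genes that were tested, Ly6c2 and Cxcr2, summed to 6.62, 3.47 and 2.71 CPM against 0.235 to 0.971, with 1 to 7 of the 11 listed at 0 in a library and the neutrophil marker S100a8 at 0 in each of the 3. Choroid plexus genes, 12 in the list, summed to 1190 and 1843 CPM in the Dnmt3a2 libraries but to 161 CPM in the Control library, within the 132 to 373 CPM of the other 13. The 7 meningeal fibroblast genes summed to 108 and 137 CPM in that pair against 48.1 to 70.1 CPM in the other 14. With each gene weighed alike, as a centred mean log2 level, Dnmt3a2 day 1 replicate 1 was not high. It stood at 0.09, within the -0.34 to 0.15 of the other 14, and Dnmt3a2 day 5 replicate 1 at 0.48. The 10 oligodendrocyte genes were highest in Dnmt3a2 day 1 replicate 1, at 6122 CPM against 3205 to 5489 CPM. The sum of 9 neuronal markers ran from 14473 to 16046 CPM over all 16. A large part of it was Camk2a, at 7143 to 9092 CPM in the 13 libraries that did not stand apart. At day 5 the Dnmt3a2 sums, 14473 to 14900 CPM, lay below the Control sums, 14978 to 16046 CPM. With each neuronal gene weighed alike the groups overlapped. The Dnmt3a2 scores of that day, -0.09 to 0.07, took in all the Control scores, which reached 0.06. What part these differences had in the members' levels was not tested, and results are given below with and without these libraries. As the Control day 1 library differs in choroid plexus level, the set without the pair of choroid-rich libraries and the set without all 3 were both run. Both libraries of the pair are from Dnmt3a2 groups and high for many members, so leaving them out by itself lowers the members' changes.

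**Figure D3:**
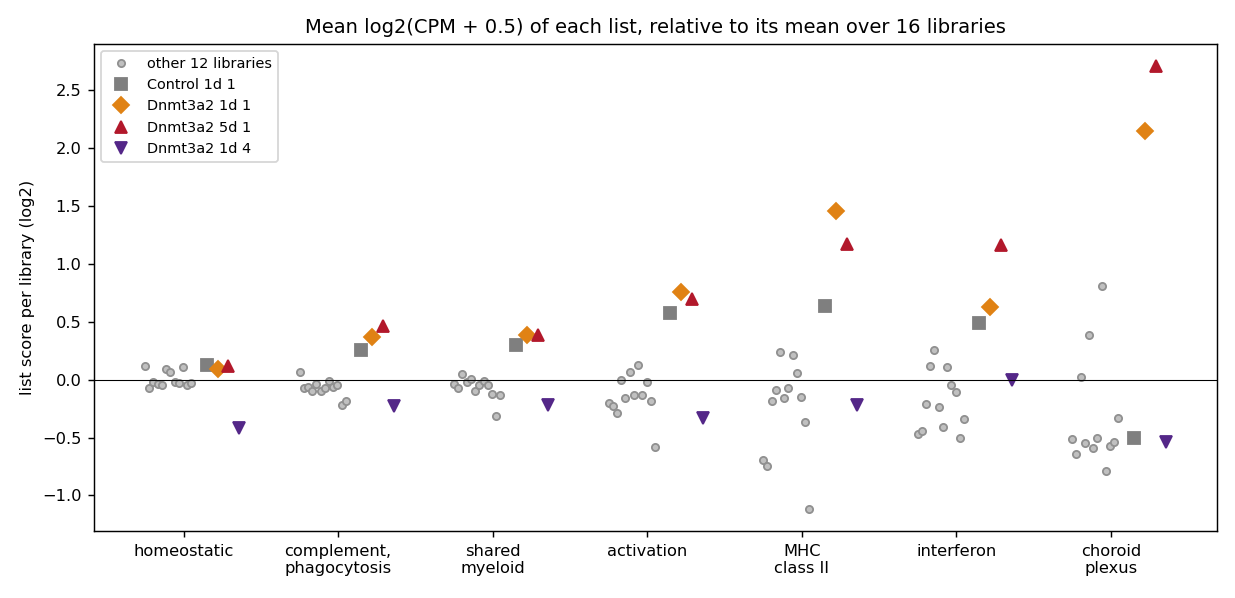
Score of each marker list in each of the 16 libraries, the mean over its genes of log2(CPM + 0.5) centred on each gene's mean. Coloured marks are Control day 1 replicate 1, Dnmt3a2 day 1 replicates 1 and 4 and Dnmt3a2 day 5 replicate 1, and the other 12 libraries are grey; the replicate 1 libraries lead the complement, shared myeloid, activation, MHC class II and interferon lists, and only the Dnmt3a2 pair leads choroid plexus.

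Between the viruses Lpl, which encodes lipoprotein lipase, was the only 1 of the 36 members called. Many of the others have intervals too wide to show a change of its size. With Dnmt3a2 Lpl stood at 0.799 times its Control level averaged over both days. A gene was called at an adjusted p under 0.05 in edgeR's quasi-likelihood test over all genes tested. At day 1, 0 of 36 members were called, against 0.0888% of all genes (0.0533% higher and 0.0355% lower), and 3 had an unadjusted p under 0.05 (7.17% of all genes). At day 5, 0 members were called (0.32% of all genes, 0.148% higher and 0.172% lower) and 1 had an unadjusted p under 0.05 (8.01%). With both days averaged, 1 member was called (1.43% of all genes, 0.704% higher and 0.722% lower) and 3 had an unadjusted p under 0.05 (12.1%). DESeq2's Wald test called Lpl at each day and over both, while limma-voom called 0 members at either day and 1 over both.

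Lpl (ENSMUSG00000015568, GRCm38 chr8:68880491-68907448, plus strand) splits triglycerides, is part of the activated microglial program and is also made by hippocampal neurons. At day 1 it read 60.8, 53.3, 55.9 and 53.5 CPM in Control and 45.1, 49.0, 40.6 and 44.3 CPM with Dnmt3a2. At day 5 the Control libraries read 58.0, 58.7, 61.6 and 63.1 CPM and the Dnmt3a2 libraries 42.7, 48.2, 56.3 and 45.3 CPM. All Dnmt3a2 libraries lay below all Control libraries of their day. Groups that do not overlap were seen for 3.43% of all genes at day 1 and 6.29% at day 5. The mean was 55.9 ± 3.52 against 44.7 ± 3.44 CPM at day 1 and 60.4 ± 2.4 against 48.1 ± 5.89 CPM at day 5 (SD, n = 4 each). Averaged over both days Lpl fell by 0.32 on the log2 scale (SE 0.05, 95% interval of the fold 0.739 to 0.863, edgeR adjusted p 0.00279). By day the log2 change was -0.32 (SE 0.08, adjusted p 0.168) and -0.33 (SE 0.08, adjusted p 0.0679). The effect at day 5 minus that at day 1 was -0.01 on the log2 scale (95% interval -0.23 to 0.22).

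Lpl did not share the pattern of the other members over libraries. Its highest 3 libraries were Control day 1 replicate 1 and Control day 5 replicates 3 and 4, and both choroid-rich libraries lay within or below the range of the rest of their group. The call over both days held without the choroid-rich pair and without all 3 libraries that stood apart, with log2 changes between -0.37 and -0.28 over the 29 alternatives run.

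**Figure D4:**
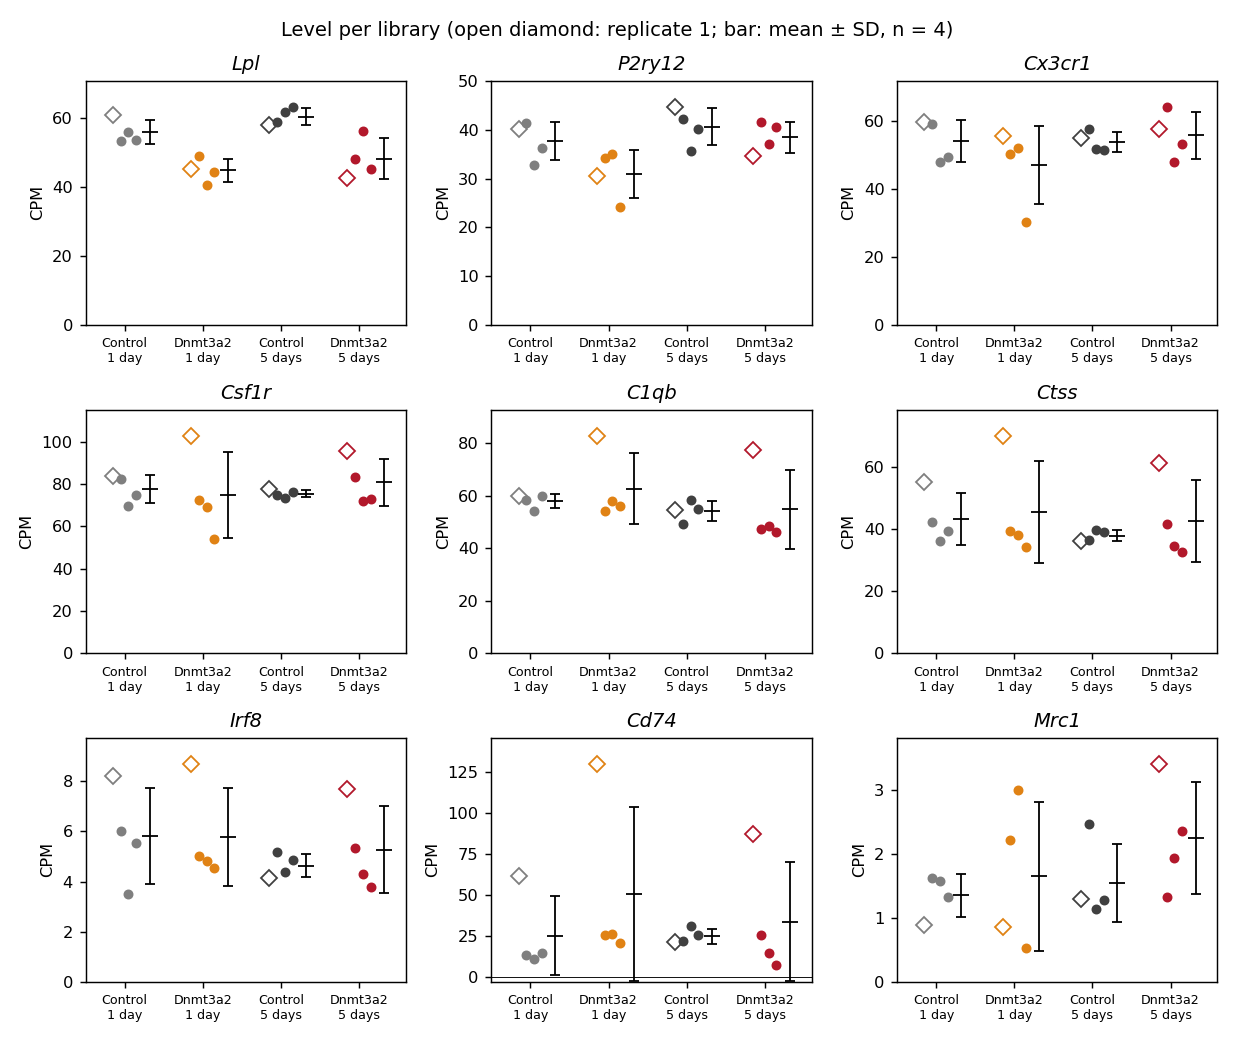
Level in CPM of 9 members (Lpl, P2ry12, Cx3cr1, Csf1r, C1qb, Ctss, Irf8, Cd74, Mrc1) in each library of the 4 groups, with the mean and SD (n = 4) as a bar; open diamonds are replicate 1. In Lpl the Dnmt3a2 libraries lie below the Control libraries of the same day, from 40.6 to 56.3 against 53.3 to 63.1 CPM; in C1qb, Ctss, Irf8 and Cd74 the open diamonds stand above the other libraries of the Dnmt3a2 groups.

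None of the 11 homeostatic genes was called with Dnmt3a2 at either day. At day 1 only 2 of the 11 were above Control and their median log2 change was -0.163, while at day 5 there were 7 above Control with a median of 0.049. Over all genes tested the medians were 0.003 and 0.008. Without Dnmt3a2 day 1 replicate 4 there were 5 above Control at day 1 with a median of -0.033, and without the choroid-rich pair 0 of 11 with a median of -0.226. Replicate 4 was low and the pair high among Dnmt3a2 libraries for many of these genes, so each omission shifts the changes by itself. P2ry12, the ADP receptor that steers microglial processes, read 40.3, 41.4, 32.9 and 36.3 CPM in Control and 30.5, 34.2, 35.0 and 24.2 CPM with Dnmt3a2 at day 1. Its values at day 5 were 44.7, 42.2, 35.7 and 40.2 CPM in Control and 34.6, 41.6, 37.1 and 40.6 CPM with Dnmt3a2. The groups overlapped at both days. At day 1 the log2 change was -0.28 (SE 0.10, unadjusted p 0.0137, edgeR adjusted p 0.494), and at day 5 it was -0.08 (SE 0.10). Without Dnmt3a2 day 1 replicate 4 the day 1 value was -0.18.

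Olfml3, a secreted matrix protein, read 31.8, 28.9, 27.5 and 28.2 CPM in Control and 29.2, 25.8, 25.7 and 21.3 CPM with Dnmt3a2 at day 1. The day 5 libraries gave 30.3, 27.5, 29.1 and 26.2 CPM in Control and 26.3, 27.8, 26.6 and 26.4 CPM with Dnmt3a2. Its groups overlapped too, with a log2 change at day 1 of -0.19 (SE 0.08, unadjusted p 0.0243, edgeR adjusted p 0.594). P2ry12, Olfml3 and Lpl are the 3 members with an unadjusted p under 0.05 at day 1, and all were lower with Dnmt3a2.

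Cx3cr1, the fractalkine receptor, read 59.6, 58.9, 47.9 and 49.4 CPM in Control and 55.5, 50.2, 52.0 and 30.2 CPM with Dnmt3a2 at day 1. At day 5 it read 54.8, 57.6, 51.6 and 51.3 CPM in Control and 57.6, 64.0, 47.9 and 53.3 CPM with Dnmt3a2. Replicate 4 of Dnmt3a2 at day 1 was the lowest library by far, and the other 15 lay between 47.9 and 64.0 CPM. Csf1r, the colony stimulating factor receptor, read 83.9, 82.7, 69.5 and 74.9 CPM in Control and 103, 72.7, 69.4 and 54.3 CPM with Dnmt3a2 at day 1. Its day 5 values were 77.6, 75.1, 73.4 and 76.2 CPM in Control and 95.8, 83.2, 72.1 and 72.9 CPM with Dnmt3a2. For Csf1r the 4 Dnmt3a2 libraries of day 1 thus took in both the highest and the lowest value of all 16.

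Tmem119, a surface protein of microglia, read 27.3, 26.3, 20.9 and 25.1 CPM in Control and 33.2, 22.1, 22.3 and 22.7 CPM with Dnmt3a2 at day 1. Its day 5 values were 20.4, 22.6, 25.8 and 22.1 CPM in Control and 28.6, 22.7, 22.4 and 20.5 CPM with Dnmt3a2. Only replicate 1 of each Dnmt3a2 group stood above the Control range of its day. Sall1, a transcription factor of microglial identity, read 30.0, 27.2, 23.7 and 23.5 CPM in Control and 34.0, 26.7, 24.2 and 21.1 CPM with Dnmt3a2 at day 1, and 21.8 to 28.9 CPM over the 8 libraries of day 5. Its groups overlapped at both days. The log2 changes of Tmem119 were 0.01 and 0.05 and those of Sall1 0.02 and 0.04 at days 1 and 5. Siglech, Fcrls, Gpr34, P2ry13 and Selplg also overlapped between viruses at both days; Fcrls ran from 10.2 to 25.1 CPM and, unlike the other genes, was lowest in Dnmt3a2 day 1 replicate 1.

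Among the 9 complement and phagocytosis genes 0 were called, 4 were above Control at day 1 and 9 at day 5, with median log2 changes of -0.014 and 0.102. All 9 overlapped between viruses at both days, where only 3.43% and 6.29% of all genes did not overlap. Without the choroid-rich pair, 9 of 9 were below Control at day 1 (median -0.213) and 8 of 9 at day 5 (median -0.079). Each library of the pair was the highest of its group for all 9 genes, so leaving them out lowers the changes by itself. The C1q genes lie side by side on chromosome 4 (GRCm38, C1qb from 136880129 to 136886187, C1qc from 136889804 to 136893065 and C1qa from 136895917 to 136898803, minus strand). C1qb read 59.9, 58.3, 54.1 and 59.8 CPM in Control and 83.0, 54.1, 58.0 and 56.2 CPM with Dnmt3a2 at day 1. At day 5 it read 54.5, 49.2, 58.6 and 55.1 CPM in Control and 77.4, 47.4, 48.5 and 46.3 CPM with Dnmt3a2. In both Dnmt3a2 groups replicate 1 was above every Control library while the other 3 lay within or below the Control range.

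C1qa followed the same course, with 71.0, 61.9, 55.5 and 64.0 CPM in Control and 89.6, 53.9, 61.0 and 53.9 CPM with Dnmt3a2 at day 1. Its day 5 values were 55.5, 58.2, 65.0 and 61.9 CPM in Control and 91.0, 59.3, 53.6 and 55.4 CPM with Dnmt3a2. Replicate 1 was again the highest library of each Dnmt3a2 group. C1qc read 68.8, 52.1, 48.1 and 54.0 CPM in Control and 69.2, 51.5, 53.3 and 46.9 CPM with Dnmt3a2 at day 1. The day 5 values of C1qc were 50.8, 51.1, 51.8 and 51.9 CPM in Control and 74.0, 51.5, 49.4 and 45.9 CPM with Dnmt3a2. The subunits kept a narrow ratio to each other across all 16 libraries, with C1qa to C1qb from 0.958 to 1.25 and C1qc to C1qb from 0.834 to 1.15 in CPM. Without the 3 libraries that stood apart, the highest library exceeded the lowest by 1.21-fold in C1qa, 1.29-fold in C1qb and 1.18-fold in C1qc.

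Trem2, the lipid sensor, read 15.5, 12.9, 13.9 and 14.2 CPM in Control and 15.6, 12.1, 11.6 and 12.3 CPM with Dnmt3a2 at day 1. At day 5 Trem2 gave 11.7, 11.9, 14.6 and 13 CPM in Control and 16.2, 13.1, 10.8 and 12.5 CPM with Dnmt3a2. Both days overlapped. Tyrobp, its adaptor, read 12.8, 13.6, 13.3 and 12.6 CPM in Control and 14.1, 11.5, 10 and 11.4 CPM with Dnmt3a2 at day 1. For Tyrobp at day 5 the values were 9.05, 9.99, 12.1 and 10.4 CPM in Control and 14.9, 9.31, 8.91 and 8.44 CPM with Dnmt3a2. Replicate 1 was the highest of the Dnmt3a2 libraries for both genes at both days, and the other 3 Dnmt3a2 libraries of day 1 lay below all 4 Control libraries.

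The lysosomal markers varied in the same way. Ctss, a protease that also trims the invariant chain, reached 55.0, 70.0 and 61.3 CPM in the 3 libraries that stood apart, and the other 13 ran from 32.6 to 42.2 CPM. Cd68, a lysosomal membrane protein, had the smallest p after Lpl at day 5, with 15.9, 14.9, 14.3 and 14.5 CPM in Control and 21.9, 17.5, 14.2 and 14.4 CPM with Dnmt3a2. Its log2 change there was 0.19 (SE 0.14, unadjusted p 0.20, edgeR adjusted p 0.842), with the lower 2 Dnmt3a2 libraries inside or beside the Control range. The next was Siglech, a sialic acid receptor of the homeostatic list, at -0.13 (SE 0.10, unadjusted p 0.208, adjusted p 0.847); it read 13.5, 10.9, 10.8 and 12.5 CPM in Control and 11.2, 10.8, 11.2 and 10.3 CPM with Dnmt3a2. C3ar1, the receptor for a C3 fragment, ran from 1.32 to 3.83 CPM, and Itgam, the integrin chain of complement receptor 3, from 17.5 to 29.9 CPM.

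Of the 8 genes that most myeloid cells share, 0 were called, and their median log2 change was -0.019 at day 1 (3 above Control) and 0.024 at day 5 (5 above Control). Without the choroid-rich pair 1 and 0 of the 8 were above Control, with medians of -0.155 and -0.125. Leaving out this pair, high for most of the 8, lowers the Dnmt3a2 side by itself. Spi1, which encodes PU.1, read 8.60, 7.18, 6.25 and 7.56 CPM in Control and 7.39, 6.56, 7.78 and 5.37 CPM with Dnmt3a2 at day 1. Its day 5 libraries gave 5.18, 5.81, 6.76 and 6.93 CPM in Control and 9.94, 6.35, 4.64 and 6.59 CPM with Dnmt3a2. Both the highest and the lowest Spi1 value came from the Dnmt3a2 group of day 5. Irf8, its partner factor, read 8.20, 6.03, 3.50 and 5.55 CPM in Control and 8.69, 5.03, 4.82 and 4.54 CPM with Dnmt3a2 at day 1. For Irf8 at day 5 the values were 4.14, 5.18, 4.37 and 4.85 CPM in Control and 7.69, 5.33, 4.30 and 3.77 CPM with Dnmt3a2. In Irf8 the 3 libraries that stood apart are the highest of the 16. Aif1, the cytoskeletal protein known to histologists as Iba1, was low in this tissue, at 3.13, 1.99, 3.13 and 3.43 CPM in Control and 3.47, 3.05, 2.51 and 1.87 CPM with Dnmt3a2 at day 1. At day 5 it read 2.94, 3.05, 2.89 and 2.36 CPM in Control and 4.09, 2.24, 2.14 and 2.59 CPM with Dnmt3a2. Its groups overlapped throughout. The lysosomal protein Laptm5 ran from 60.1 to 94.4 CPM, the tetraspanin Cd53 from 5.07 to 9, Ly86, a partner of Toll-like receptor family proteins, from 11.4 to 16.7, and the Fc receptor genes Fcgr3 and Fcer1g from 9.20 to 16.4 and from 13.3 to 25.9 CPM.

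Activation genes other than Lpl were low or uneven, and 0 of the other 5 were called. The median log2 change of all 6 was 0.151 at day 1 and 0.186 at day 5, with 4 above Control at each, and it was -0.21 and -0.294 without the choroid-rich pair. That omission lowers the changes by itself, as each library of the pair was the highest of its group for 5 of the 6. Cd74, the invariant chain of MHC class II, read 61.4, 13.2, 11 and 14.8 CPM in Control and 130, 25.7, 26.4 and 20.6 CPM with Dnmt3a2 at day 1. The day 5 values of Cd74 were 21.2, 21.8, 31.1 and 25.4 CPM in Control and 86.9, 25.6, 14.7 and 7.30 CPM with Dnmt3a2. The 3 libraries that stood apart held the highest values, and without them Cd74 still ran from 7.30 to 31.1 CPM, a 4.27-fold range. Its log2 change at day 1 was 1.01 (SE 0.84, 95% interval -0.82 to 2.83, edgeR adjusted p 0.867). That value was -0.06 without the choroid-rich pair, which removes Dnmt3a2 replicate 1 alone from this day, and 0.89 without all 3 libraries (unadjusted p 0.0364, adjusted p 0.693). At day 5 the log2 change was 0.43 (SE 0.84) with all libraries and -0.65 without the choroid-rich pair. The level of Cd74 relative to C1qb went from 0.157 to 1.56 over the 16 libraries, a far wider range than any ratio between C1q subunits.

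Cst7, an inhibitor of lysosomal proteases, read 1.65, 0.539, 0.721 and 0.486 CPM in Control and 1.65, 1.04, 0.792 and 0.555 CPM with Dnmt3a2 at day 1. At day 5 it gave 0.768, 0.299, 0.845 and 0.555 CPM in Control and 1.19, 0.592, 0.434 and 0.0672 CPM with Dnmt3a2. Its highest libraries were again the 3 replicates 1 named above. Itgax, known as CD11c, read 1.78, 0.843, 0.481 and 0.416 CPM in Control and 1.96, 0.937, 0.138 and 0.832 CPM with Dnmt3a2 at day 1. For Itgax at day 5 the values were 1.00, 0.863, 0.669 and 0.416 CPM in Control and 1.75, 1.18, 1.07 and 0.538 CPM with Dnmt3a2. At these low levels the 95% intervals of the log2 change were wide, from -0.89 to 1.38 for Cst7 and from -1.08 to 1.35 for Itgax at day 1. The pattern recognition receptors Cd14 and Tlr2 ran from 1.25 to 3.24 and from 0.971 to 4.06 CPM.

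The perivascular macrophage genes were low, Pf4 most of all, and Mrc1 varied widely between libraries. Mrc1, the mannose receptor, read 0.890, 1.62, 1.58 and 1.32 CPM in Control and 0.859, 2.22, 3.00 and 0.520 CPM with Dnmt3a2 at day 1. Its day 5 values were 1.30, 2.46, 1.13 and 1.28 CPM in Control and 3.40, 1.32, 1.94 and 2.35 CPM with Dnmt3a2. The groups overlapped at both days, with log2 changes of 0.29 (SE 0.45) and 0.54 (SE 0.44). Pf4, a chemokine of these cells and of platelets, stayed between 0.104 and 0.528 CPM. It gave 0.165, 0.337, 0.206 and 0.486 CPM in Control and 0.172, 0.278, 0.413 and 0.104 CPM with Dnmt3a2 at day 1. In the day 5 libraries Pf4 read 0.334, 0.232, 0.317 and 0.243 CPM in Control and 0.528, 0.197, 0.501 and 0.370 CPM with Dnmt3a2. A further 10 genes of perivascular macrophages were listed, and of these Cd163, Lyve1, Clec10a and Folr2 did not pass the filter. The other 6 gave 0 calls, with median log2 changes of -0.270 at day 1 and 0.227 at day 5.

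Across the 36 members the direction depended on which libraries were in the fit. With all 16 libraries, 14 members were above Control at day 1 (median log2 change -0.041) and 27 at day 5 (median 0.050). Among all genes tested, 50.9% and 52.8% were above Control. Without the choroid-rich pair, 34 of 36 members were below Control at day 1 (94.4%, median -0.176, against 50.1% of all genes) and 26 of 36 at day 5 (72.2%, median -0.073, against 49.7%). Averaged over both days the same fit had 34 of 36 below Control, with a median of -0.135. The pair left out are Dnmt3a2 libraries, each the highest of all 16 for 14 members. Leaving them out lowers the Dnmt3a2 side by itself, so the direction in this fit is no separate result. Without all 3 libraries the members below Control numbered 28 at day 1, 26 at day 5 and 33 over both days, with medians of -0.107, -0.073 and -0.094. In these fits Lpl remained the only call, over both days. Leaving out Dnmt3a2 day 1 replicate 4 in place of those had the opposite sign at day 1, with 15 of 36 below Control and a median of 0.048. These members tend to vary together between libraries, so the counts of direction are not 36 separate observations.

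**Figure D5:**
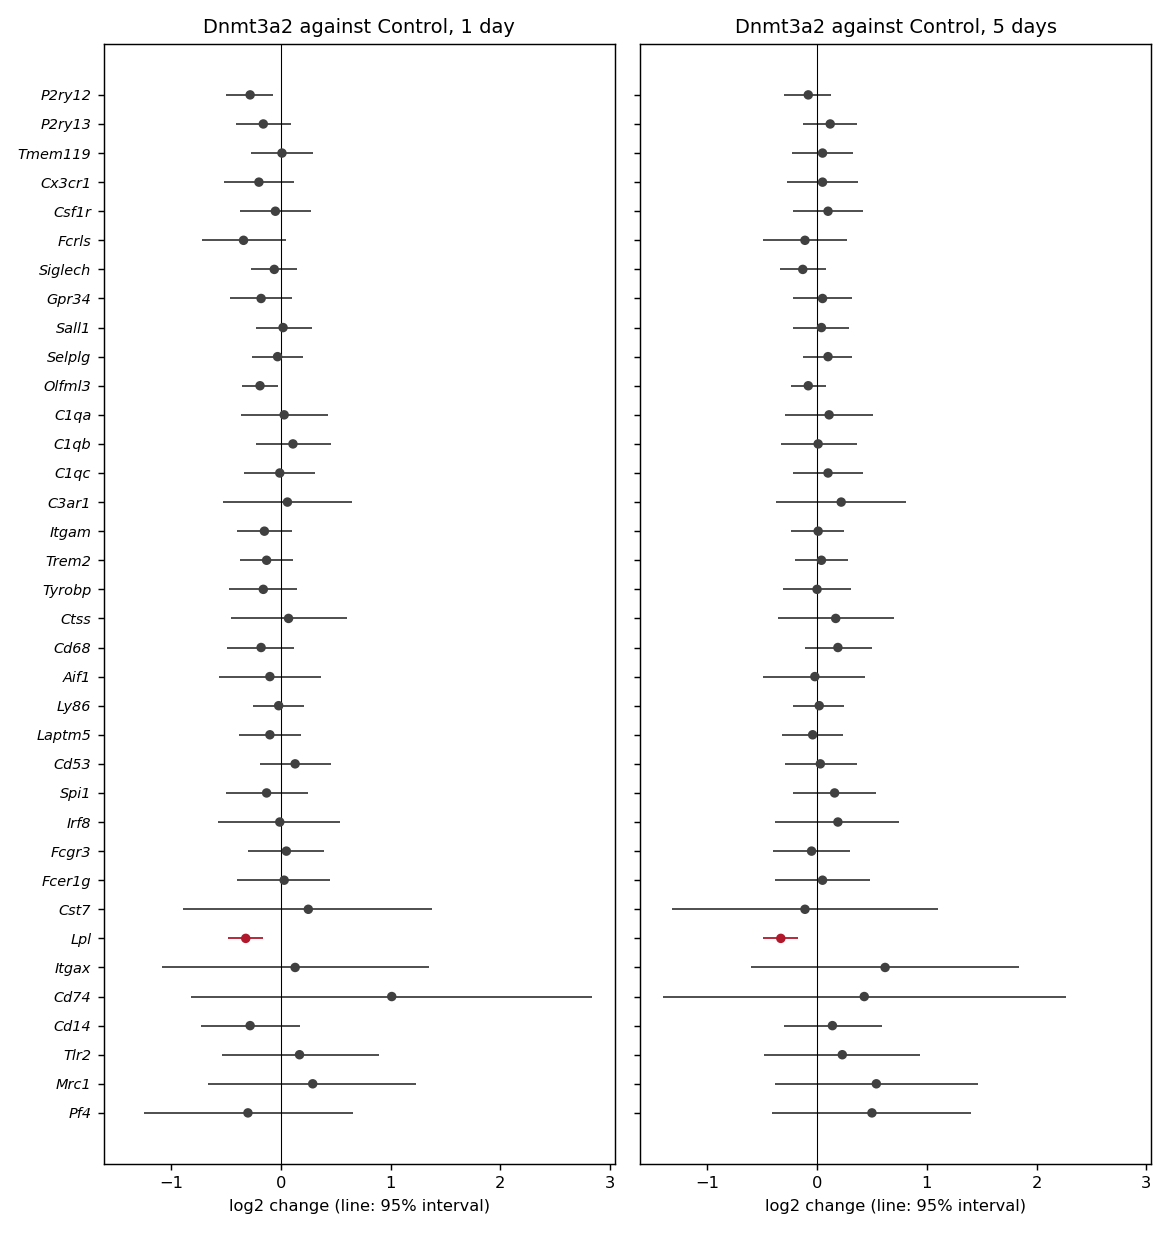
Log2 change with Dnmt3a2 relative to Control for each of the 36 members at 1 day and at 5 days, with 95% intervals, ordered by role. Lpl, in red, is the gene called over both days, at -0.32 and -0.33 by day; the other intervals include 0 except those of P2ry12 and Olfml3 at 1 day, and those of Cd74, Cst7, Itgax, Mrc1 and Pf4 are the widest.

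The days were compared within each virus. In the Control groups 0 of 36 members and 0 genes in all were called by edgeR between day 5 and day 1 (0% called), as were 0 members by DESeq2 and by limma-voom, and 1 member had an unadjusted p under 0.05 against 3.54% of all genes. That member was Tyrobp, at a log2 change of -0.33 (SE 0.15, unadjusted p 0.0375, adjusted p 0.999); its Control groups did not overlap, with 12.6 to 13.6 CPM at day 1 and 9.05 to 12.1 CPM at day 5, as for 2.4% of all genes. The next were Lpl at 0.11 (SE 0.08, unadjusted p 0.158) and Spi1 at -0.26 (SE 0.18, unadjusted p 0.161). Only 8 of the 36 were higher at day 5, with a median of -0.074. Without all 3 libraries that stood apart, which removes Control day 1 replicate 1 from this comparison, 17 of 36 were below their day 1 level and the median was 0.002.

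Between days in the Dnmt3a2 groups 0 of 36 members were again called by edgeR, DESeq2 or limma-voom (0% of all genes in edgeR), and 3 had an unadjusted p under 0.05, against 10.8% of all genes. They were P2ry13, P2ry12 and Gpr34, all higher at day 5. P2ry13 read 13.8, 12.6, 13.7 and 8.70 CPM at day 1 and 16.8, 17.0, 14.8 and 15.9 CPM at day 5, with no overlap. Its log2 difference was 0.41 (SE 0.12, unadjusted p 0.00262, edgeR adjusted p 0.301), and 5.17% of all genes did not overlap here. P2ry12 differed by 0.31 (SE 0.10, unadjusted p 0.0076, adjusted p 0.328). Gpr34, a receptor for lysophosphatidylserine, read 6.42, 5.80, 6.41 and 4.37 CPM at day 1 and 7.92, 7.80, 6.91 and 6.35 CPM at day 5, a difference of 0.33 (SE 0.13, unadjusted p 0.0205, adjusted p 0.391). In each of these genes replicate 4 was the lowest library of day 1, and without it the differences were 0.27 for P2ry13, 0.21 for P2ry12 and 0.22 for Gpr34. In the Control groups P2ry13 read 15.1, 14.9, 12.4 and 12.2 CPM at day 1 and 16.6, 15.3, 13.2 and 14.5 CPM at day 5, and Gpr34 6.46, 7.92, 5.60 and 6.11 CPM and then 7.72, 7.30, 6.83 and 6.13 CPM, with overlap in both genes.

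Whether the effect of the virus differed between the days was tested as an interaction, which uses the same 16 libraries as the comparisons above. By edgeR 0 of 36 members were called (0% of all genes), as by DESeq2 and limma-voom, and 0 had an unadjusted p under 0.05, against 2.13% of all genes. The smallest p-values were those of Cd68, at a log2 difference of 0.38 (SE 0.20, unadjusted p 0.0826), P2ry13, at 0.28 (SE 0.17, unadjusted p 0.11), and Cd14, at 0.42 (SE 0.30, unadjusted p 0.182). The median difference over the 36 was 0.120, with 29 above 0, where 51.2% of all genes were above 0. It was 0.011 with 18 above and 18 below when Dnmt3a2 day 1 replicate 4 was left out.

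Other genes known from microglia were read from the same fit. Of 56 further microglial genes, all tested, 0 were called at day 1, where 0.0888% of all genes were called. At day 5 and over both days 1 was called, against 0.32% and 1.43% of all genes. It was Parvg (ENSMUSG00000022439), an adaptor protein of integrin adhesion in blood-lineage cells. At day 1 it read 15.9, 16, 12.1 and 13.8 CPM in Control and 17.1, 20.8, 17.9 and 20 CPM with Dnmt3a2. By day 5 the values were 14.8, 16.6, 15.9 and 17.1 CPM in Control and 19.4, 23.6, 21.9 and 25.6 CPM with Dnmt3a2, so that the groups did not overlap at either day. Groups without overlap were seen for 3.43% of all genes at day 1 and 6.29% at day 5. Parvg rose by 0.44 on the log2 scale over both days (SE 0.07, edgeR adjusted p 0.00142) and by 0.49 at day 5 (SE 0.10, adjusted p 0.0273), while the 0.39 of day 1 was not called (SE 0.10, adjusted p 0.208). The day 5 call did not survive leaving out any one of 7 of the 8 day 5 libraries, all but Dnmt3a2 replicate 1. Of 22 further activation genes 16 were tested, and 1 was called over both days, against 1.43% of all genes. It was Cd83, a surface protein of activated antigen-presenting cells. It read 12.8, 15.7, 17.0 and 16.2 CPM in Control and 13.7, 14.3, 13.3 and 12 CPM with Dnmt3a2 at day 1. At day 5 Cd83 gave 14.6, 14.9, 15.7 and 16.5 CPM in Control and 13.1, 12.4, 12.8 and 12.8 CPM with Dnmt3a2. Averaged over both days Cd83 fell by 0.25 on the log2 scale, a fold of 0.843 (SE 0.06, edgeR adjusted p 0.0404), and 14 of 29 alternatives ended that call.

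Neuronal and glial signals to microglia were measured in the same tissue, and of 12 such ligands and partners 11 were tested with 0 calls in edgeR. The ligands of the colony stimulating factor receptor were even over the libraries, with Csf1 from 32.6 to 41.1 CPM and Il34 from 29.6 to 38.1 CPM and log2 changes over both days of 0.01 and 0.00. Cx3cl1, the fractalkine that binds Cx3cr1, read 1085, 1149, 1082 and 990 CPM in Control and 1063, 1045, 986 and 965 CPM with Dnmt3a2 at day 1. Its day 5 libraries gave 1070, 1093, 1110 and 1129 CPM in Control and 1039, 1042, 999 and 991 CPM with Dnmt3a2, without overlap. At that day 6.29% of all genes did not overlap. The log2 change of Cx3cl1 over both days was -0.10 (adjusted p 0.166). C3, the central complement protein that acts after C1q, read 5.60, 2.22, 1.85 and 2.05 CPM in Control and 9.48, 3.51, 3.93 and 2.32 CPM with Dnmt3a2 at day 1. For C3 at day 5 the values were 1.60, 3.19, 5.21 and 2.81 CPM in Control and 8.55, 2.17, 1.30 and 2.79 CPM with Dnmt3a2. It was highest in the same 3 libraries as the C1q genes, and its log2 change over both days was 0.46 (SE 0.45). The 6 MHC class II genes had a median log2 change of 1.065 at day 1 and 0.184 at day 5 with 0 calls. Among marker genes of other brain cells, Slc1a3, an astrocyte glutamate transporter, rose by 0.19 over both days (adjusted p 0.0426), a call that 17 of 29 alternatives ended. Camk2a, a kinase of excitatory neurons, fell by 0.13 (adjusted p 0.0383), and 10 of 29 alternatives ended that call. Slc1a3 and Camk2a were each the only call of their list over both days, where 1.43% of all genes were called. Of the 10 astrocyte genes 7 were above Control and 3 below (median log2 change 0.087). Of the 9 neuronal genes 5 were above and 4 below (median 0.023).

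Some members share exon sequence with a neighbour, and the labels do not say whether counting used strand. Csf1r overlaps Hmgxb3 on the opposite strand by 873 bases, a gene at 52.7 CPM, and P2ry12 overlaps Med12l by 9 bases. Itgam shares 3450 bases with Gm49368 on the same strand, listed at 0.038 CPM. The values of these members are uncertain to the extent that reads were assigned between the pairs.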

How the data were processed

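RNA from 16 dorsal hippocampus libraries (4 groups of 4) was sequenced on the BGISeq-500 platform, per the labels' protocols. Trim Galore 0.6.4, kallisto 0.4.6, edgeR 3.17 and GRCm38.p6 are named in the submitters' processing notes. The authors deposited per library a table of estimated counts for 55385 Ensembl gene identifiers, of which 26.1% of values were not whole, and a table of log2 CPM for 16907 genes. The deposited log2 CPM were recomputed from the counts to within 5.33e-15 and were used only for that check. GENCODE M21 named 55144 identifiers and gave positions and principal transcript lengths.

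Counts were rounded and fitted in edgeR 4.0.16 (R 4.3.3): filterByExpr by group, TMM factors, a robust quasi-likelihood fit of all 16 libraries with 1 term per group, and Benjamini-Hochberg adjustment over 16899 genes at 0.05. Levels are CPM with TMM-scaled library sizes. List scores used log2(CPM + 0.5) in Python 3.11.15 with pandas 2.3.3. The fit was tested on simulated counts. Depth differed little, so precision was set by the spread between libraries; low members rest on few reads. No 2 libraries were alike within sampling noise: chi-square per gene was at least 4.43 over 120 pairs.

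The members and all lists were chosen with earlier results of these data known. A fold change with its test is given for each member called and otherwise for the 3 members of smallest p per comparison; genes of other lists are named where called, with a few ligands and complement C3 fixed by name. S100a8, Ly6c2 and Cxcr2 were named after their values were seen. Alternatives used DESeq2 1.42.0, limma 3.58.1 (voom and trend), other scalings and filters, a replicate block and left-out libraries.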

Additional observations from a re-analysis of the deposited data

Results flagged for a closer look

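In 17 of the 144 combinations of a member and a group, 1 library lay farther from the other 3 than Dixon's criterion at the 95% level allows; chance gives about 5% of groups. Dnmt3a2 day 1 replicate 1 accounts for 8 of them, Dnmt3a2 day 5 replicate 1 for 6, Control day 1 replicate 1 for 2 and Control day 5 replicate 2 for 1. Other marker lists were high in the first 3 of these libraries, as given above, and their part in these values was not tested.

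In the Dnmt3a2 group of day 1 the outlying library read 33.2 CPM for Tmem119 (22.1 to 22.7 in the other 3), 83.0 for C1qb (54.1 to 58.0), 15.6 for Trem2 (11.6 to 12.3) and 70.0 for Ctss (34.3 to 39.3). In that library the shared myeloid genes Ly86, Irf8 and Fcer1g read 16.7 CPM (12.3 to 12.8), 8.69 CPM (4.54 to 5.03) and 25.1 CPM (16.3 to 17.8), and Cd74 read 130 CPM (20.6 to 26.4).

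The Dnmt3a2 group of day 5 held a library at 91.0 CPM for C1qa (53.6 to 59.3), 77.4 for C1qb (46.3 to 48.5) and 14.9 for Tyrobp (8.44 to 9.31). The same library read 15.1 CPM for Ly86 (11.4 to 11.7), 25.9 for Fcer1g (13.3 to 15) and 4.06 for the Toll-like receptor gene Tlr2 (1.33 to 1.48).

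Control day 1 replicate 1 read 29.9 CPM for Itgam (21.7 to 22.5) and 61.4 CPM for Cd74 (11 to 14.8). Control day 5 replicate 2 read 2.46 CPM for Mrc1 (1.13 to 1.30).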

How the results depend on the processing

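Lpl was called over both days in all 29 alternatives, with log2 changes of -0.37 to -0.28 and adjusted p of 5.64e-06 to 0.0116. The count of members called rose from 0 to 1, always Lpl, at day 1 with DESeq2's Wald test (1, adjusted p 0.0259) and without a low-count filter (1, adjusted p 0.035), and at day 5 with DESeq2's Wald test (1, 0.00896), without that filter (1), without Dnmt3a2 day 5 replicate 3 (1, 0.0116) and at an adjusted p of 0.10 (1, 0.0679). Leaving out each library gave 0 calls at day 1, 0 to 1 at day 5 and 1 over both days; in the comparisons of days and in the interaction it gave 0. Among the called genes and those of smallest p no log2 change turned sign, whereas Cd74 did without the choroid-rich pair, as given above. The median log2 change of the members ran from -0.176 to 0.048 at day 1 and from -0.073 to 0.125 at day 5. Counts over all genes ran from 6 to 65 at day 1, 22 to 143 at day 5 and 121 to 512 over both days. Parvg over both days held in 29 of 29 alternatives. A fit of the groups compared alone was not run for the average of both days or the interaction.

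The groups share replicate numbers, and nothing in the labels says that a number marks a shared animal or day. Over 24 same-numbered pairs r ran from -0.086 to 0.38 and 8 of the 24 were over 0.1. The main fit did not pair the libraries by number, and whether a number marks a shared batch was not tested. In the data 6 of 16 libraries correlated best with their own number, a count for which no chance level was worked out. The 3 libraries that stood apart are all replicate 1. With a replicate block 0 members were called at day 1, 0 at day 5, 1 over both days (Lpl, log2 change -0.33) and 0 in the other comparisons; over all genes 17, 65 and 295 were called with the virus.

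Many members, low ones such as Cst7 and Itgax and abundant ones such as Cd74 and Ctss, have intervals too wide to show a change of the size seen in Lpl.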

Other observations

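Several inflammatory genes listed beside the members did not pass the filter on low counts, among them the cytokine genes Il1b and Tnf and the chemokine genes Ccl2, Ccl3 and Ccl4. In all, 29 genes of the other lists were not tested. The chemokine receptor Ccr2, which marks monocytes that enter from blood, ran from 0.0347 to 0.55 CPM, and the T cell gene Cd3e from 0 to 0.618 CPM. Both maxima lay among the libraries that stood apart, as the other 13 reached only 0.282 CPM for Ccr2 and 0.263 CPM for Cd3e. Jchain, a gene of antibody-secreting cells, read 26.0 CPM in Control day 1 replicate 1, 16.2 in Dnmt3a2 day 1 replicate 1 and 12.2 in Dnmt3a2 day 5 replicate 1, against 0.667 to 7.14 CPM in the other 13 libraries; Ccr2, Cd3e and Jchain were chosen after their values were seen.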
